A study of Mus musculus with 15 samples.

Results

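Sphingolipids are membrane lipids built on ceramide, and the enzymes that make, modify and degrade ceramide form a single branching pathway. Serine palmitoyltransferase starts the pathway, ceramide is then turned into sphingomyelin or glucosylceramide, and ceramidases release sphingosine, which sphingosine kinases convert into sphingosine-1-phosphate (S1P). Ceramide is widely known for favouring cell death and S1P for favouring survival, in the ovary among other tissues.

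The 10 genes described here are Sptlc1, Sptlc2, Sgms1, Sgms2, Smpd1, Ugcg, Asah1, Sphk1, Sphk2 and Sgpl1, among 15059 named genes in the authors' table of probes. They were chosen by symbol in that table, which held 13 probes for them: 2 each for Asah1, Sphk1 and Sptlc2, and 1 for every other gene. All 13 were valid, meaning well above background in at least 4 of 5 arrays of each stage, like 17323 probes in all. Cumulus cells, which enclose the oocyte in the follicle, were collected from B6CBAF1/J mice at 3 stages with 5 arrays each. The NC1 stage was taken from juveniles aged 3 weeks, with unexpanded complexes and prophase I oocytes able to resume meiosis but not yet developmentally competent. The C1 stage was taken from adults aged 8 weeks, again with unexpanded complexes and prophase I oocytes, here developmentally competent. The C2 stage was taken from adults of the same age given PMSG and then hCG, as expanded complexes flushed from the oviduct, with fully competent oocytes in metaphase II. The methods of the study name no hormone for NC1 or C1. Each array held the cells of a group of mice, so the spread is between pools. Stage cannot be told apart from age between NC1 and C1, or from hormones, site of collection and the hyaluronidase used to disperse C2 complexes between C1 and C2. Between NC1 and C2, age and all of these differ together, and stage cannot be told apart from any of them.

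Values are log2 signals after subtraction of each array's own median over valid probes, and a difference of 1 is 2-fold. Levels of different probes are not compared, since probes differ in brightness. A change was called when its Benjamini-Hochberg adjusted p by limma, over all valid probes, was under 0.01. In these bulk samples, fewer cells of a type and less RNA per cell cannot be told apart.

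The labelled cell type was checked first on lists of marker genes, each summed as linear signal relative to the array median. All 10 granulosa and cumulus genes were well above background in at least some arrays, with sums of 254 to 368 at NC1, 279 to 371 at C1 and 70.1 to 95.3 at C2. Of the 9 valid ones, 7 fell between C1 and C2. The sum of 8 ovulatory response genes was 1.14 to 1.73 at NC1 and 25.7 to 40.2 at C2, while at C1 it was 13.5 in replicate 4 and 1.05 to 2.08 in the others. For 10 oocyte genes the sums were 12.6 to 50.2, 12.8 to 40.2 and 0.649 to 17.0, the lowest being C2 replicates 4 and 5. Those of 6 red blood cell genes were 73.5 to 439 at NC1 and at most 43.5 at C1 and 25.3 at C2. For 7 theca and stroma genes they were 11.1 to 53.1, 9.90 to 16.5 and 0.495 to 0.727. The sums of 8 oviduct epithelium genes were 6.32 to 8.03, 7.25 to 11.9 and 25.0 to 30.3. Of its 6 valid genes, Krt8 (1.30) and Krt18 (1.76) were called higher at C2 than at C1, Epcam (-1.05) and Tppp3 (-1.01) were called lower, and Ovgp1 (2.28) and Cdh1 (0.05) were not called, while Pax8 was well above background on no array. Those of 7 leukocyte genes were 3.10 to 6.06, 3.90 to 5.05 and 3.91 to 5.77. The part of these other cells in the results was not tested.

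Between C1 and C2, 4 of the 10 enzymes rose and none was called lower, each gene being counted by its brightest probe. The increases were those of both sphingomyelin synthases, Sgms1 and Sgms2, of the sphingosine kinase Sphk2 and of the S1P lyase Sgpl1. Among all valid probes, 25.4% were called higher at this step and 22.2% were called lower (4400 and 3853 probes). Scaling moved this split, to 5299 higher and 1795 lower with the median over all gene probes and to 1927 and 2741 with the spike-in probes. In the same comparison the arrays of C2 lay entirely above those of C1 for these 4 genes and entirely below for 1, Sptlc1, where 24.1% and 19.9% of all valid probes did so. The median change of the 10 enzymes was 0.20, beside 0.02 over all valid probes. Between NC1 and C2, 4 enzymes were called higher (Sgms1, Sgms2, Sphk1 and Sphk2) and 1 lower (Ugcg), beside 26.5% and 24.9% of all valid probes (4597 and 4319 probes, or 4665 and 2477 with the median over all gene probes). The moderated F-test over the 3 stages called Sgms1, Sgms2, Sphk1 and Sphk2, or 4 of 10 enzymes, beside 51.6% of all valid probes. The dimmer Sptlc2 probe is outside these counts. It was called lower at C2 than at C1 (-1.07, limma adjusted p = 0.000956), without overlap of the arrays. It was also called lower than at NC1 (-1.07, limma adjusted p = 0.000881) and called by the F-test. With 10 enzymes against this background, the counts are not a result about the group, and single enzymes are described below.

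**Figure D1:**
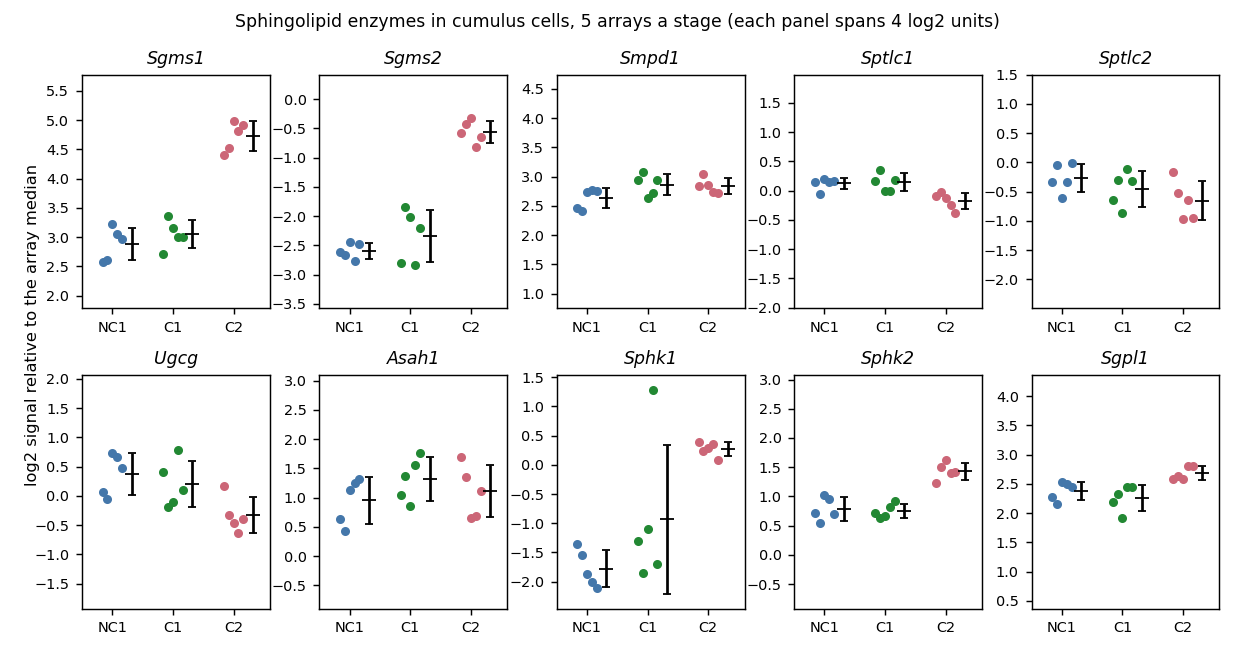
Log2 signal relative to the array median (vertical axis, 4 log2 units in every panel) of the 10 enzymes at NC1, C1 and C2. Each point is an array, in replicate order, and the bars show the mean ± SD of 5 arrays; each gene is shown by its probe with the highest mean. The C2 arrays of Sgms1 (4.41 to 4.98) and Sgms2 (-0.82 to -0.33) lie above all 10 prophase I arrays, and Sphk1 has 1 C1 array at 1.28.

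Sgms1 and Sgms2 encode the enzymes that transfer phosphocholine to ceramide and so produce sphingomyelin, Sgms1 in the Golgi and Sgms2 mainly at the plasma membrane. On the Sgms1 probe the signal was 2.58, 2.61, 3.22, 3.05 and 2.96 in NC1 replicates 1 to 5, and 2.71, 3.36, 3.16, 3.01 and 3.00 in C1 replicates. It was 4.41, 4.52, 4.98, 4.82 and 4.92 in C2 replicates. Every C2 array was above every prophase I array, while NC1 and C1 overlapped. Sgms1 was 3.20-fold higher at C2 than at C1, a log2 change of 1.68 ± 0.16 (SE, 95% interval 1.35 to 2.01, limma adjusted p = 1.3e-07). Within the 4 array slides, each of which held arrays of all stages, the change ranged from 1.24 to 1.98. Against NC1 the change was 1.85 (limma adjusted p = 3.1e-08).

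Sgms2 gave a dimmer signal of -2.61, -2.67, -2.45, -2.77 and -2.48 at NC1 and of -2.80, -1.85, -2.02, -2.83 and -2.20 at C1. At C2 it was -0.58, -0.43, -0.33, -0.82 and -0.65. The C2 arrays again lay above all others, and the C1 arrays spread more widely (SD 0.45) than those of NC1 (SD 0.13) or C2 (SD 0.19). From C1 to C2 Sgms2 rose by 1.78 ± 0.17 (SE), or 3.42-fold (95% interval 1.41 to 2.15 on the log2 scale, limma adjusted p = 2.3e-07). The change was 1.44 to 2.20 within slides. Against NC1 Sgms2 was 4.09-fold higher (limma adjusted p = 3.5e-08).

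The change of both synthases was compared within arrays, where the scaling cancels. In NC1 arrays the signal of Sgms1 minus that of Sgms2 was 5.48 ± 0.26, in C1 arrays 5.39 ± 0.29 and in C2 arrays 5.29 ± 0.32 (mean ± SD, n = 5 arrays). The C2 and C1 means differed by -0.10, with an exact two-sided permutation p of 0.587 (0.603 adjusted over 12 tests of 6 pairs). No difference between the changes of both synthases was thus detected with 5 arrays a stage.

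RefSeq (GRCm38.p6) promoter sequences are shown for Sgms1, Sgms2, Sphk1 and Sphk2, the enzymes called higher at C2 than at NC1. They let these enzymes be compared by short motifs. The Sgpl1 window is counted below but not printed. Each RefSeq window runs from 250 bases before to 50 bases after a transcription start, and 22 windows were matched for 9 of the 10 genes. Asah1 had no entry. Which start was used was not measured by the arrays. The 250 bases before the outermost Sgms2 start (chr3:131491444-131491693, minus strand) and the outermost Sphk2 start (chr7:45718003-45718252, minus strand) read as follows, with motif matches in capitals:
Sgms2: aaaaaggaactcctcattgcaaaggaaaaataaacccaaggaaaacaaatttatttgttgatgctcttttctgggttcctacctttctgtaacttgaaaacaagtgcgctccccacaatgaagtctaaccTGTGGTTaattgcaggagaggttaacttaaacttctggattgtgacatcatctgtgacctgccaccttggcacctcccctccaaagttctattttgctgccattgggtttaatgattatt
Sphk2: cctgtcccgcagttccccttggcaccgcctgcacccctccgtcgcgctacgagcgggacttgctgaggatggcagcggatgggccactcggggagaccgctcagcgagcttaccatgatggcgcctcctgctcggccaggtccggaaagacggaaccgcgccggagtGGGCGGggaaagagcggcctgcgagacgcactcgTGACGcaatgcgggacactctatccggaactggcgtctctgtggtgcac
In Sgms2 the capitals mark a RUNX motif (TGTGGTT) that begins 120 bases before the start. In Sphk2 they mark a GC box (GGGCGG) and the core of a cAMP response element (CRE core, TGACG), and no GC box lies in the Sgms2 stretch.

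The other starts of Sgms1, Sgms2 and Sphk1 lie inside the annotated genes, so only 30-base stretches around a match are printed. They hold an AP-1 motif (TGANTCA, where N is any base) or, in the last line, an NR5A motif (CAAGGTCA), in capitals:
Sgms1, chr19:32211049-32211078, minus strand: tgcgcggggccTGACTCActtcattagctg
Sgms2, chr3:131490781-131490810, minus strand: gcaccacccctTGAGTCAgcgggtgcccct
Sgms2, chr3:131490388-131490417, minus strand: cgggcccggggTGAGTCAcggctgggagca
Sphk1, chr11:116531776-116531805, plus strand: gagcgtgtcgcTGAGTCAccttctcggaag
Sgms1, chr19:32349338-32349367, minus strand: ccttcctggatCAAGGTCAtacatgattat
On either strand, the AP-1 motif was found in 5 of the 22 windows, all of them of Sgms1, Sgms2 or Sphk1 and 2 of them over the same Sphk1 site. These 3 genes had 15 of the 22 windows. Among all 32851 windows in the table, 7.81% held an AP-1 motif. The GC box was in 12 of 22 windows beside 35.7% of all, the CRE core in 5 beside 20.8%, and the E-box (CACGTG) in 3 beside 7.15%. The full CRE (TGACGTCA), which contains the core, was in 1 window, of Sphk2, beside 1.79% of all. The RUNX and NR5A motifs were in 1 window each, beside 5.27% and 1.56%. Like the AP-1 windows, the 3 E-box windows were all of these genes, here Sgms2 or Sphk1, and those of Sphk1 held the same site. A match describes the letters in these windows only.

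Smpd1 encodes acid sphingomyelinase, which hydrolyses sphingomyelin to ceramide in lysosomes. Its signal was 2.46, 2.42, 2.74, 2.77 and 2.75 in NC1 arrays, 2.94, 3.07, 2.64, 2.72 and 2.95 at C1, and 2.84, 3.05, 2.85, 2.73 and 2.72 at C2. The stages overlapped. From C1 to C2 the difference was -0.02 (95% interval -0.26 to 0.22), and from NC1 to C1 it was 0.24 (95% interval -0.00 to 0.47), neither of which was called. Asah1, the lysosomal acid ceramidase that releases sphingosine, spread more widely within a stage. On its brighter probe the arrays lay between 0.43 and 1.32 at NC1, between 0.85 and 1.77 at C1 and between 0.66 and 1.70 at C2. Asah1 changed by -0.21 from C1 to C2 (95% interval -0.70 to 0.28). The dimmer Asah1 probe gave -0.03 (95% interval -0.65 to 0.59). Neither probe was called in any comparison, and both intervals include changes of about 1.5-fold.

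Sptlc1 and Sptlc2 encode the subunits of serine palmitoyltransferase, which condenses serine with palmitoyl-CoA in the rate-limiting step. Sptlc1 was 0.15, -0.05, 0.20, 0.15 and 0.17 at NC1 and 0.16, 0.36, -0.01, 0.00 and 0.19 at C1. It was -0.10, -0.03, -0.12, -0.24 and -0.39 at C2, below all C1 arrays. The difference of -0.32 from C1 (95% interval -0.53 to -0.10) missed the threshold (limma adjusted p = 0.0132). It was -0.65 to -0.09 within slides, and passed without C1 replicate 3 and with an unmoderated linear model. With the median over all gene probes or the authors' deposited table it was -0.01 (limma adjusted p = 0.981 and 0.98), so the size of the Sptlc1 difference depends on the scaling.

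The probes of Sptlc2 disagreed. On the brighter one the arrays lay between -0.60 and -0.01 at NC1, between -0.87 and -0.11 at C1 and between -0.97 and -0.17 at C2, with a C2 minus C1 difference of -0.20 (95% interval -0.57 to 0.17) that was not called. On the dimmer one the signal was -2.61, -2.95, -2.84, -3.90 and -2.66 at NC1 and -3.00, -2.73, -2.95, -3.08 and -3.18 at C1. At C2 it was -4.41, -4.27, -4.23, -4.11 and -3.26, and 4 of these 5 arrays were well above background. This probe fell by 1.07 on the log2 scale from C1 to C2 (95% interval -1.57 to -0.57, limma adjusted p = 0.000956). The call did not hold with the median over all gene probes (-0.76, limma adjusted p = 0.0163) or with the deposited table (-0.76, limma adjusted p = 0.0162). With the mean over both probes the change was -0.64, which was called. Within arrays, Sptlc2 (brighter probe) minus Sptlc1 was -0.59 ± 0.30 at C1 and -0.48 ± 0.28 at C2 (SD, n = 5, exact two-sided permutation p = 0.532).

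Ugcg encodes glucosylceramide synthase, the enzyme that commits ceramide to glycosphingolipids. Its signal was 0.06, -0.06, 0.74, 0.67 and 0.48 at NC1, and 0.40, -0.19, -0.10, 0.78 and 0.10 at C1. At C2 it was 0.17, -0.33, -0.46, -0.64 and -0.39, overlapping both other stages. Ugcg was lower at C2 than at NC1 by a log2 change of -0.71 (95% interval -1.14 to -0.27, limma adjusted p = 0.00688). The change from C1 was -0.53 (95% interval -0.96 to -0.09) and was not called (limma adjusted p = 0.0373). The call against NC1 did not hold under 14 of 33 alternatives, which included the authors' deposited table (-0.51) and leaving out any of NC1 replicates 3 to 5 (-0.68 to -0.62) or C2 replicates 2 to 5 (-0.71 to -0.63). Within arrays, the NC1 mean of Sgms1 minus Ugcg was 2.51 ± 0.10, the C1 mean 2.85 ± 0.58 and the C2 mean 5.06 ± 0.52 (SD, n = 5). All C2 arrays, from 4.24 to 5.46, were above all C1 arrays, from 2.24 to 3.55. The difference of 2.21 had the smallest p that 5 against 5 arrays allow (exact two-sided permutation p = 0.00794), which the adjustment over 12 tests brings to 0.0952. Without C1 replicate 4 it was 2.05 and the adjusted p 0.0317 by the same exact test. This smaller difference got a lower adjusted p only because Sphk1 minus Sphk2 and Sphk1 minus Sgpl1, described below, also reached 0.0317 without that array. The adjustment takes all 12 tests together.

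**Figure D2:**
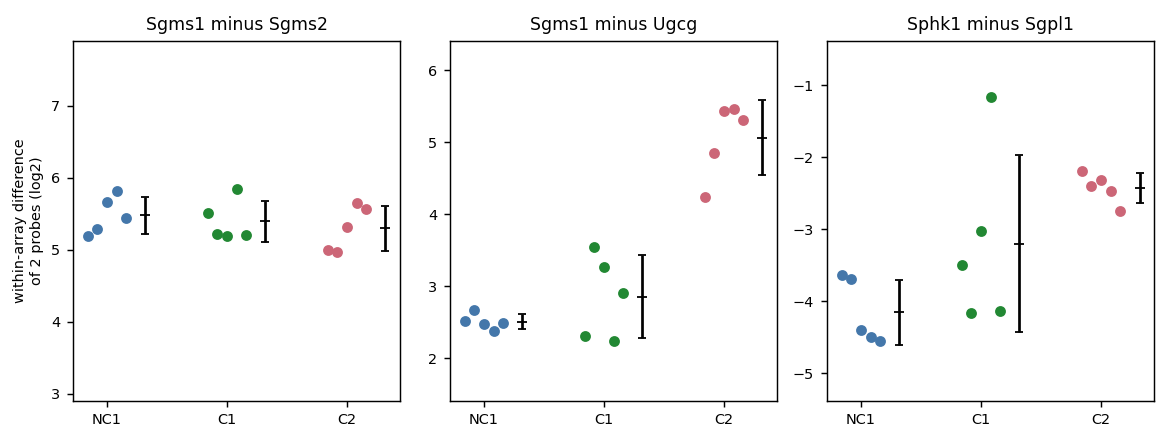
Within-array difference of 2 probes (log2, vertical axis) for 3 of the 6 pairs at NC1, C1 and C2. Points are arrays and bars show the mean ± SD of 5 arrays. Sgms1 minus Sgms2 overlaps at all stages, Sgms1 minus Ugcg is higher in all C2 arrays, and Sphk1 minus Sgpl1 has 1 C1 array at -1.16.

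Sphk1 and Sphk2 encode the sphingosine kinases that produce S1P. On the brighter Sphk1 probe the signal was -1.35, -1.55, -1.87, -2.0 and -2.10 at NC1, and -1.31, -1.85, -1.09, 1.28 and -1.69 at C1. At C2 it was 0.39, 0.23, 0.28, 0.35 and 0.08. C1 replicate 4 was above every C2 array, whereas the other C1 arrays overlapped with NC1. The dimmer probe had the same array at -1.01, the other C1 arrays at -3.68 to -3.28 and the C2 arrays at -2.21 to -1.72. The difference between C2 and C1 was 1.20 on the brighter probe (95% interval 0.31 to 2.09) and 1.11 on the dimmer one (95% interval 0.31 to 1.90). Neither was called (limma adjusted p = 0.0222 and 0.0184). Without C1 replicate 4 these differences were 1.75 (limma adjusted p = 4.29e-07) and 1.60 (limma adjusted p = 1.78e-07). That array holds the extreme Sphk1 values, so leaving it out takes away the spread that kept the difference from a call. The p-values without it are thus a description and no evidence of a rise. No other single array left out gave a call. Within slides the brighter probe differed by -0.99 to 1.97. Against NC1, Sphk1 was 4.11-fold higher at C2 on the brighter probe (limma adjusted p = 0.000483) and 3.60-fold higher on the dimmer one (limma adjusted p = 0.000422).

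C1 replicate 4 was also the C1 array with the highest sum of ovulatory response genes, 13.5 against 1.05 to 2.08 in the others. Its part in the Sphk1 values was not tested. Of these genes, Tnfaip6 was at 2.70 in that array and at -3.77 to -2.90 in the other C1 arrays. Ptgs2, Areg, Ereg, Ptx3 and Runx1 were also highest there among C1 arrays. Has2 (-2.59) and Pgr (-3.98) were not, as C1 replicate 3 was at -2.42 and -3.87. Apart from that array the Sphk1 signal was below -1 on both probes throughout prophase I.

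**Figure D3:**
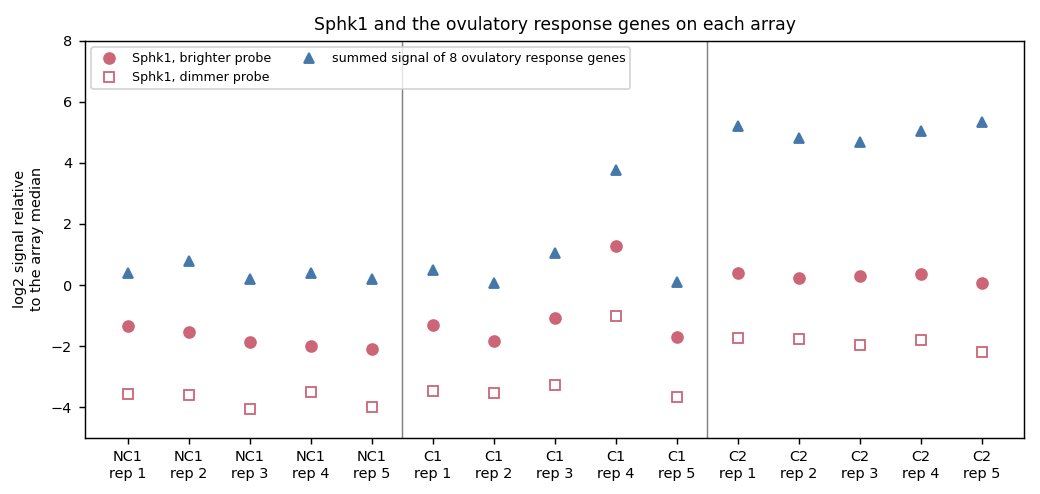
Log2 signal relative to the array median (vertical axis) of both Sphk1 probes and log2 of the summed signal of 8 ovulatory response genes on each of the 15 arrays (horizontal axis). C1 replicate 4 stands apart from the other C1 arrays for all 3 measures, with the brighter Sphk1 probe at 1.28 and a sum of 13.5 before the log.

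Sphk2 changed less but with little spread. Its signal was 0.72, 0.54, 1.03, 0.95 and 0.70 in NC1 arrays, 0.71, 0.64, 0.67, 0.82 and 0.93 at C1, and 1.23, 1.51, 1.62, 1.40 and 1.41 at C2. All C2 arrays were above all others. Sphk2 rose by 0.68 ± 0.11 (SE) from C1 to C2, or 1.60-fold (95% interval 0.45 to 0.92 on the log2 scale, limma adjusted p = 5.7e-05). Within slides the change was 0.56 to 0.73. The call was lost with spike-in scaling (0.56, limma adjusted p = 0.0946). Sphk1 minus Sphk2 within arrays was -1.69 ± 1.25 at C1 and -1.17 ± 0.22 at C2 (SD, n = 5, exact two-sided permutation p = 0.413). Without C1 replicate 4 this difference between stages was 1.05 and the adjusted p 0.0317 by the same exact test. The limit given for Sphk1 without that array holds here too.

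Sgpl1 encodes the lyase that irreversibly cleaves S1P. Its signal was 2.28, 2.15, 2.53, 2.49 and 2.45 in NC1 arrays, 2.19, 2.32, 1.92, 2.44 and 2.45 at C1, and 2.58, 2.63, 2.59, 2.81 and 2.81 at C2. The C2 arrays lay above those of both other stages, by a narrow margin. The change from C1 was 0.42 ± 0.12 (SE), or 1.34-fold (95% interval 0.17 to 0.67 on the log2 scale, limma adjusted p = 0.00531). Within slides it was 0.15 to 0.66. Against NC1 the change was 0.31 and was not called (limma adjusted p = 0.0312). The call against C1 did not hold under 11 of 33 alternatives, which included a slide block (0.40) and leaving out C1 replicate 1 (0.40) or 3 (0.34) or C2 replicate 4 or 5 (0.39 each). They also included spike-in scaling (0.30, limma adjusted p = 0.394), quantile normalization (0.30, limma adjusted p = 0.0245) and the authors' deposited table (0.73). Leaving out C2 replicates 4 and 5 together, the arrays with the lowest oocyte sums, gave 0.34 (limma adjusted p = 0.0514). Sphk1 minus Sgpl1 within arrays was -3.20 ± 1.24 at C1 and -2.42 ± 0.20 at C2 (SD, n = 5, exact two-sided permutation p = 0.183). Without C1 replicate 4 the difference between these stages went from 0.78 to 1.29, with an adjusted p of 0.0317 by the same exact test. This omission too rests on the array with the extreme Sphk1 values.

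**Figure D4:**
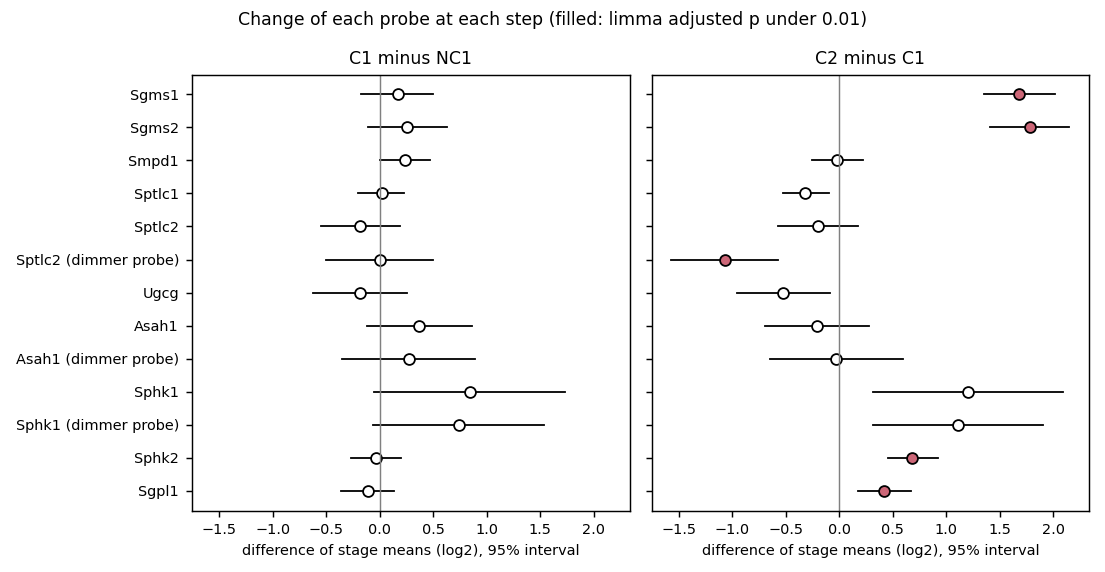
Difference of stage means (log2, horizontal axis) of the 13 probes for C1 minus NC1 and C2 minus C1, with 95% intervals from limma. Filled points have an adjusted p under 0.01. No point is filled in the left panel, and in the right panel the filled points are Sgms1 (1.68), Sgms2 (1.78), Sphk2 (0.68), Sgpl1 (0.42) and the dimmer Sptlc2 probe (-1.07).

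Between NC1 and C1, the step from incompetent juvenile to competent adult prophase I complexes, none of the 10 enzymes was called by limma, and none had an unadjusted p under 0.05. The lowest unadjusted p among them was 0.0536, for Smpd1. Over all valid probes 2.52% were called, 304 higher and 133 lower, or 249 and 28 with spike-in scaling. The estimated changes lay between -0.18 for Ugcg and Sptlc2 and 0.84 for Sphk1 (95% interval -0.05 to 1.73), and the Sphk1 value was 0.29 without C1 replicate 4. For Sgms1 the change was 0.17 (95% interval -0.17 to 0.50) and for Sgms2 it was 0.26 (95% interval -0.11 to 0.63), so changes of up to about 1.5-fold lie inside these intervals. A count of 0 was also obtained with an unmoderated linear model and at an adjusted p of 0.05.

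The wider pathway was examined on 67 genes, of which 66 were on the array by name and 47 were valid, the 10 enzymes included. Among the other 37 genes, 9 were higher and 17 lower at C2 than at C1, with a median change of -0.27, where 25.4% of all valid probes were called higher and 22.2% lower. The 17 lower genes became 9 when arrays were scaled on the spike-in probes, and 7 with the median over all gene probes or the deposited table. The counts per group below are small, are read against the same background and carry no test of the group. Groups are described below from the first step of synthesis onwards, naming the genes called with a change of at least 2-fold.

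In de novo synthesis and its inhibitors, the ceramide synthase Cers3 was 3.73-fold higher at C2 than at C1. It lay between -3.95 and -3.61 at NC1, between -4.28 and -2.65 at C1 and between -1.86 and -1.17 at C2 (limma adjusted p = 1.3e-06). Of the 9 valid de novo genes, 1 was called higher and 3 lower. Ormdl1, whose product restrains serine palmitoyltransferase, was 2.16-fold lower at C2 (limma adjusted p = 6.58e-07), the only call among 3 Ormdl genes. Of 4 valid genes of sphingomyelin synthesis and ceramide transfer, 3 were higher at C2, namely Sgms1, Sgms2 and the ceramide transfer protein gene Cert1, which rose by 0.68 and was named after its value was seen. Of 5 valid genes listed under sphingomyelin breakdown, none was called higher and 3 were called lower, beside 25.4% and 22.2% of all valid probes. The list holds relatives of acid sphingomyelinase, Smpdl3a and Smpdl3b, beside sphingomyelinases, and both relatives are among the 3 called lower. Smpdl3a changed by -0.47 (limma adjusted p = 0.000899) and was named after its value was seen. Smpd1 itself was not called. Smpd4, a neutral sphingomyelinase, fell by 1.04, and Smpdl3b, a phosphodiesterase related to acid sphingomyelinase, fell by 1.73 (limma adjusted p = 4.07e-06 and 1.6e-07). Among 3 valid ceramidase genes, 1 was called lower.

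In the glycosphingolipid branch, the median change was -0.53 over 3 valid synthesis genes and -0.08 over 11 valid breakdown genes. St3gal5, the sialyltransferase that forms the ganglioside GM3, lay between 4.62 and 5.42 at NC1, between 4.85 and 5.09 at C1 and between 1.38 and 1.91 at C2. This 10.4-fold decrease from C1 (limma adjusted p = 1.16e-11) was the largest change of the 47 pathway genes at this step. B4galt5, a lactosylceramide synthase, rose by 1.21 (limma adjusted p = 1.51e-06). Of 11 valid breakdown genes, 3 were higher and 5 lower at C2. The plasma membrane sialidase Neu3 was 6.79-fold lower at C2, at -2.23 to -1.85 against 0.31 to 1.05 at C1 (limma adjusted p = 5.17e-10). The lysosomal activator proteins moved the other way, as Psap, the saposin precursor, rose by 1.67, and Gm2a, the GM2 activator, rose by 1.07 (limma adjusted p = 4.85e-06 and 0.000163).

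Gm2a was also higher in adult C1 pools than in juvenile NC1 pools. It was -0.18, -0.65, -0.08, 0.26 and 0.00 at NC1 and 2.54, 2.69, 1.63, 2.35 and 2.73 at C1, a 5.74-fold difference with no overlap (limma adjusted p = 4.49e-07). It was 3.48, 3.51, 3.52, 3.26 and 3.52 at C2. The other pathway gene called between NC1 and C1 was Plpp3, a lipid phosphate phosphatase, named after its value was seen. It was higher at C1 by 0.60 (limma adjusted p = 0.00583). The call of Plpp3 at this step did not hold under 15 of 33 alternatives, whereas that of Gm2a held under all 33.

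On the S1P side, 4 of 8 valid genes of synthesis, breakdown and export were called higher at C2 than at C1 and 3 lower, beside 25.4% and 22.2% of all valid probes. Besides Sphk2 and Sgpl1, the lipid phosphate phosphatase Plpp2 rose by 1.35, from 1.31 to 1.56 at C1 to 2.49 to 2.98 at C2 (limma adjusted p = 2.06e-07). Of 5 S1P receptor genes only S1pr2 was valid. It lay between -3.21 and -2.33 at NC1, between -2.93 and -2.25 at C1 and between -1.41 and -0.93 at C2, a 2.76-fold increase (limma adjusted p = 1.42e-06). S1pr4 and S1pr5 were well above background on no array, and S1pr1 and S1pr3 on 2 C1 arrays each. The changes of at least 2-fold named here kept their sign under all 7 scalings.

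**Figure D5:**
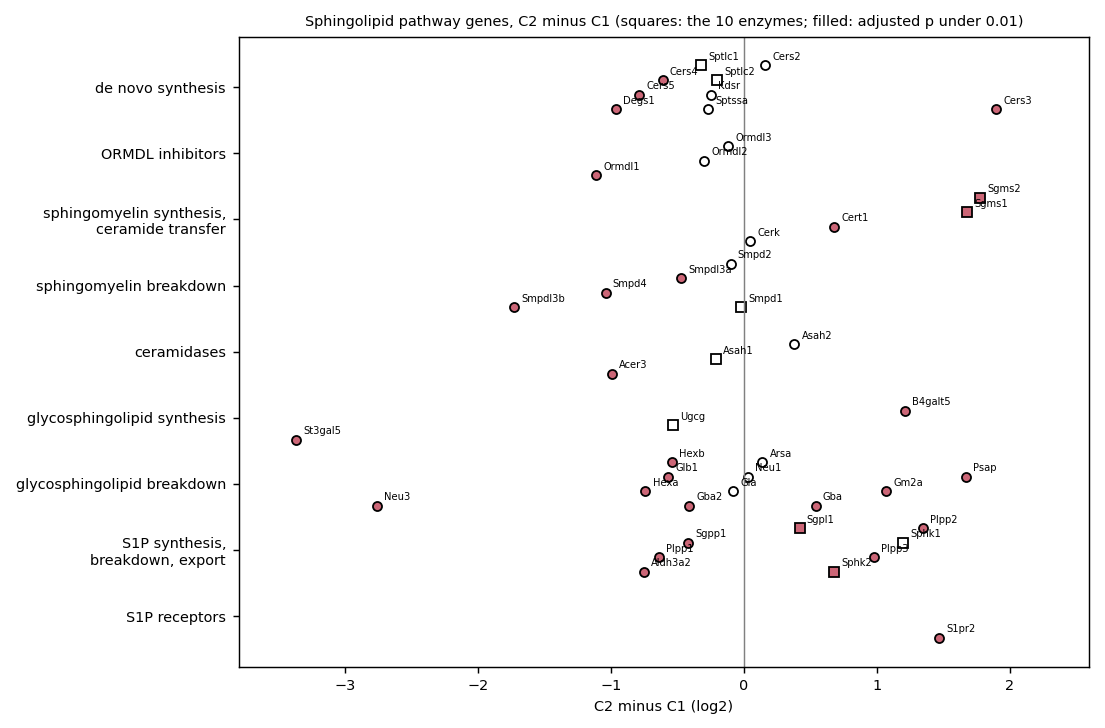
C2 minus C1 (log2, horizontal axis) of the 47 valid pathway genes, by group (vertical axis; the vertical offset within a group only separates labels). Squares are the 10 enzymes, circles the other genes, and filled symbols have a limma adjusted p under 0.01. Sgms1 and Sgms2 lie furthest right in their group, and St3gal5 (-3.37) and Neu3 (-2.76) furthest left of all.

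Over the 15 arrays, the profile of Sgms1 was most like those of Parp4 (Pearson r 0.987), Il10rb (0.981), Qpct (0.981), Ro60 (0.980) and Garre1 (0.979), taking the brightest probe of each gene. Among the enzymes, Sgms2 (0.959) and Sphk2 (0.925) were nearest, followed by Sgpl1 (0.757) and Sphk1 (0.664). Of all valid probes, 99.3% had a lower r than Sgms2, 94.9% than Sphk2, 78.3% than Sgpl1 and 73.1% than Sphk1. Many probes thus tracked Sgms1 better than Sgpl1 or Sphk1 did. The lowest r values were those of Sptlc2 (-0.555), Ugcg (-0.667) and Sptlc1 (-0.727), while Smpd1 (0.335) and Asah1 (0.002) lay between. The arrays share the difference between C2 and the other stages, and the correlations are given as a description.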

How the data were processed

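Cumulus cell RNA from 15 pools of mice was labelled with 1 dye and hybridised to Agilent arrays with 39429 gene probes. The authors deposited the scanner output of every array, with background-subtracted intensity values per spot on a linear scale (Feature Extraction 10.7.1.1 per the file headers, 10.5.1.1 in the submitters' processing notes). A second file that the authors deposited holds log2 values for 20855 gene probes, which equalled the log2 intensity plus 1 constant per array (largest SD over probes 0.00742) and served as an alternative.

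Spots were averaged per probe, outlier spots and control spots were left out, log2 was taken and each array's median over valid probes was subtracted. No gene spot was saturated. Between 18366 and 24493 gene probes per array were well above background, and the number of arrays limits the precision. The valid probes had 20 missing values, none of which was imputed. Stages were compared in 1 model over all arrays with limma 3.58.1 in R 4.3.3, two-sided, with Benjamini-Hochberg adjustment at 0.01, and the script was tested on simulated data. Pairs of enzymes were compared by exact permutation tests in Python 3.11.15 with numpy 2.4.6, at 0.05 after adjustment over 12 tests. Replicates are pools of different mice.

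The enzymes and the pathway and marker lists were chosen with earlier results of these data known. For genes with several valid probes the brightest stands for the gene. Other pathway genes were named when called with at least a 2-fold change, and the 5 genes most like Sgms1 by Pearson r. Alternatives covered scaling, background correction, filters, the model, blocks and left-out arrays. Omitting NC1 replicates 1 and 2 together, or C2 replicates 4 and 5 together, was added after seeing the data. Probes were named through RefSeq (GRCm38.p6) accessions or the deposited table.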

Additional observations from a re-analysis of the deposited data

Results flagged for a closer look

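Each stage of 13 member probes, 39 groups of 5 arrays in all, was searched for an array far from the others, and 5 were found, where chance gives about 1 in 20 groups. A group was listed when the gap of its highest or lowest array to the next, divided by the range of the group, was above 0.71. Both probes of Sphk1 had C1 replicate 4 far above the other C1 arrays, at 1.28 against -1.85 to -1.09 on the brighter probe and at -1.01 against -3.68 to -3.28 on the dimmer one. Sptlc1 in NC1 replicate 2 was -0.05, below the other NC1 arrays at 0.15 to 0.20. The dimmer Sptlc2 probe was -3.90 in NC1 replicate 4, against -2.95 to -2.61 in the others. The same probe was -3.26 in C2 replicate 5, against -4.41 to -4.11 in the others.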

How the results depend on the processing

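The calls of Sgms1 and Sgms2 between C1 and C2 held under all 33 alternatives, and no result changed its direction after being called. With spike-in scaling the probes called were 5363 by the F-test (8931 in the reported setting), 277 between NC1 and C1 (437), 4668 between C1 and C2 (8253) and 5453 between NC1 and C2 (8916), and 2 enzymes were called higher between C1 and C2 in place of 4. Between NC1 and C1, 271 probes were called with the median over all gene probes, 272 with the deposited table and 872 at an adjusted p of 0.05. These scalings shifted the median change of all valid probes between C1 and C2 to 0.33 (median over all gene probes and deposited table) and -0.10 (spike-in probes). At 0.05, 7 enzymes were called over the 3 stages, 2 lower between C1 and C2 and 2 lower between NC1 and C2. Enzymes lower between C1 and C2, 0 as reported, numbered 1 with an unmoderated model, 1 with the mean over the probes of a gene and 0 to 1 when leaving out 1 array, with 1 (Sptlc1) without C1 replicate 3. Enzymes lower between NC1 and C2, 1 as reported (Ugcg), numbered 2 with the mean over probes, 0 to 1 when leaving out 1 array, and 0 with the median over all gene probes, spike-in scaling, the deposited table, no filter on dim probes, the replicate block and C2 replicates 4 and 5 left out. Sphk1 was called between C1 and C2 with the median over all gene probes (1.51, limma adjusted p = 0.00491) and the deposited table (1.51). Pairs called numbered 0 to 3 when leaving out 1 array, 3 of them without C1 replicate 4. Other pathway genes called between NC1 and C1, 2 as reported, numbered 5 at 0.05, 1 to 3 when leaving out 1 array, and 1 with the median over all gene probes, spike-in scaling, the deposited table, no filter, a slide block, both stages alone, NC1 replicates 1 and 2 left out and C2 replicates 4 and 5 left out. Those lower between C1 and C2, 17 as reported, numbered 7 with the median over all gene probes, 9 with spike-in scaling and 7 with the deposited table. The causes were not tested. Replicate numbers were not taken to pair the arrays, since the deviations of same-numbered arrays did not all correlate above 0.1. Between NC1 and C1 all 5 correlations were positive (0.056 to 0.348), and over all stages they ranged from -0.241 to 0.348. With the replicate block 404, 8059 and 8767 probes were called between NC1 and C1, C1 and C2, and NC1 and C2, and the Ugcg call against NC1 had a limma adjusted p of 0.0104. Dim probes are limited by background, the dimmer Sptlc2 probe at C2 in particular.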

Other observations

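Genes of the pathway that were not valid at every stage included Spns2, the exporter of S1P. Its signal was -2.12, -2.40, -1.32, -2.21 and -2.08 at NC1 and 0.66, 0.43, -1.18, -0.51 and -0.24 at C1, with every array well above background and no overlap between the stages. At C2 it was -3.79, -4.78, -4.50, -4.59 and -4.48, and 1 of these 5 arrays was well above background. With the filter relaxed to 4 of 5 arrays of at least 1 stage, Spns2 was higher at C1 than at NC1 by 1.86 (limma adjusted p = 0.00151), a step at which none of the 10 enzymes was called. B4galnt1, which encodes the synthase of gangliosides GM2 and GD2, was well above background on 0 NC1, 3 C1 and 5 C2 arrays, at -5.93 to -4.90, -5.38 to -3.85 and -2.92 to -2.55. These genes were chosen after their values were seen.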
